A study of Mus musculus with 12 samples.

Results

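snRNA repeat loci are the places in the mouse genome that the deposited repeat table assigns to a family named snRNA, which covers copies and fragments of small nuclear RNA genes. Every row with exactly that family name was taken, which gave 3382 loci of 4929385 repeat loci in all. Of these, 1772 (52.4%) had no read in any of the 6 libraries used, 1129 had reads but a mean under 10 reads per library, and 481 (14.2%) had a mean of at least 10 reads and were tested one by one. By comparison, 7.92% of all repeat loci reached that mean. The loci were 23 to 336 bp long, with a median of 91 bp.

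Small nuclear RNAs are short, abundant RNAs of the nucleus. U1, U2, U4, U5 and U6 form the core of the spliceosome, the 7SK RNA holds back the elongation factor P-TEFb, and U3 takes part in the processing of ribosomal RNA. N6-methyladenosine (m6A) is a methyl mark on adenosine in RNA. U6 carries an internal m6A placed by the enzyme METTL16, and U2 carries an internal methylated adenosine placed by METTL4. ALKBH5 is an enzyme that removes m6A from RNA.

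The study profiled m6A by immunoprecipitation and sequencing (MeRIP-seq) in chromatin-associated RNA from E14TG2a, a line of mouse embryonic stem cells. The groups were Alkbh5 KO, Alkbh5 del-cIDR, which the study's design text calls a deletion of the cIDR of Alkbh5, and WT, each with 2 immunoprecipitated (IP) and 2 input samples, 12 samples in all. All groups were grown with serum, LIF and the inhibitors PD0325901 and CHIR99021. The labels do not say whether a group is 1 clone, and both KO columns are named KO6, so both may come from 1 line.

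The deposited tables held 6 columns, 2 per genotype, which do not say IP or input and were read as IP because the submitters call one of the tables an m6A matrix. The columns named KI were read as del-cIDR by elimination. The unmodified spike-in RNA had 1.43 to 6.30 times as many reads as the m6A-modified one in these libraries, so how far the values reflect recovery by the antibody is not known. With no input library used, m6A, the amount of RNA and the number of gene copies cannot be told apart in any difference below, and neither can fewer cells and less RNA per cell. The tables name no genes, so Alkbh5 itself and markers of stem cells were not checked. Nothing states that replicates were separate cultures, so p-values measure only the spread between these samples. limma, the test used, also pools that spread over many loci or families.

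Each library held between 20922839 and 26267351 repeat reads, of which 108429 to 137253 lay in snRNA loci. The deposited signal equals whole reads multiplied by a factor that each library has of its own, set so that the m6A-modified spike-in has the same signal everywhere, and that spike-in had 1379 and 1870 reads in KO, 814 and 849 in del-cIDR, and 1172 and 1106 in WT. Values are therefore given on 2 scales. On the deposited scale, the loci and families of a library do not vary independently. That scale keeps the spike-in factor, which they all share. The relative scale removes it, as reads scaled to 1000000 repeat reads of the library (RPM) for sums and levels, and, for the test of each locus, as the log2 difference after each library was centred on its median repeat locus. That centring took out a median shift of log2 signal of -0.29 in KO relative to WT, 0.35 in del-cIDR relative to WT and 0.64 in del-cIDR relative to KO.

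A few loci held most of the snRNA reads. The largest held 15.3%, the top 10 held 60.5%, the top 50 held 84.1%, and all loci with a mean under 10 reads together held 2.15%. The tables do not state how reads that match several near-identical copies were counted, so the division of reads between copies is uncertain, and the table does not give the strand. Positions are on GRCm39 as deposited, and no gene annotation on that build was at hand, so loci are named by position and set beside RefSeq genes by length only.

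The largest locus was chr9:78082584-78082915, 332 bp long. It is the only snRNA locus of that length, and RefSeq's Rn7sk, the gene of the 7SK RNA, also lies on chromosome 9 and is 332 bp long. Positions were not compared, since RefSeq's table is on another build, so the gene at the locus was not identified. It had 711 and 745 RPM in KO, 929.8 and 954 RPM in del-cIDR, and 846 and 842 RPM in WT. The 3 groups did not overlap, with del-cIDR highest and KO lowest. The relative log2 difference between del-cIDR and KO was 0.47 ± 0.07 (SE; limma adjusted p = 9.3e-05), and the call held without any one library, with adjusted p up to 0.0269. The difference between KO and WT was -0.24 ± 0.07 (limma adjusted p = 0.053), and that between del-cIDR and WT was 0.22 ± 0.07 (limma adjusted p = 0.28), neither past the threshold of 0.05.

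The second locus, chr10:40134463-40134675 (213 bp), had 559 and 572 RPM in KO, 592 and 679.9 RPM in del-cIDR, and 595 and 504 RPM in WT. A pair of loci close together on chromosome 4 came next. chr4:132080088-132080291 (204 bp) had 319.9 and 329.9 RPM in KO, 344 and 403 RPM in del-cIDR, and 340.3 and 303 RPM in WT. chr4:132079636-132079838 (203 bp) had 271 and 259.9 RPM in KO, 288 and 328 RPM in del-cIDR, and 271 and 253 RPM in WT. At these 3 loci both del-cIDR libraries lay above both KO libraries, while KO and WT overlapped.

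Loci of 187 bp, the length of RefSeq's Rnu2-10 (a gene of the U2 RNA), numbered 16 and held 16.4% of all snRNA reads. The largest of them, chr1:72265399-72265585, had 224 and 245 RPM in KO, 242 and 302 RPM in del-cIDR, and 267 and 238 RPM in WT. chr12:59087121-59087307 had 196 and 193 RPM in KO, 204 and 254 RPM in del-cIDR, and 197 and 172 RPM in WT. chr11:101536570-101536756 had 154 and 162 RPM in KO, 186 and 208 RPM in del-cIDR, and 165 and 161 RPM in WT, so at chr12:59087121-59087307 and chr11:101536570-101536756 both del-cIDR libraries exceeded the other 4. Loci of 165 bp, the length of RefSeq's U1 genes Rnu1b1 and Rnu1b2, numbered 18 and held 6.85% of the reads. The largest of these, chr12:54743567-54743731, had 175 and 179 RPM in KO, 206 and 214 RPM in del-cIDR, and 196 and 172 RPM in WT. By contrast the 272 loci of 107 bp, the length of RefSeq's Rnu6 (U6), held 1.81% of the reads.

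**Figure D1:**
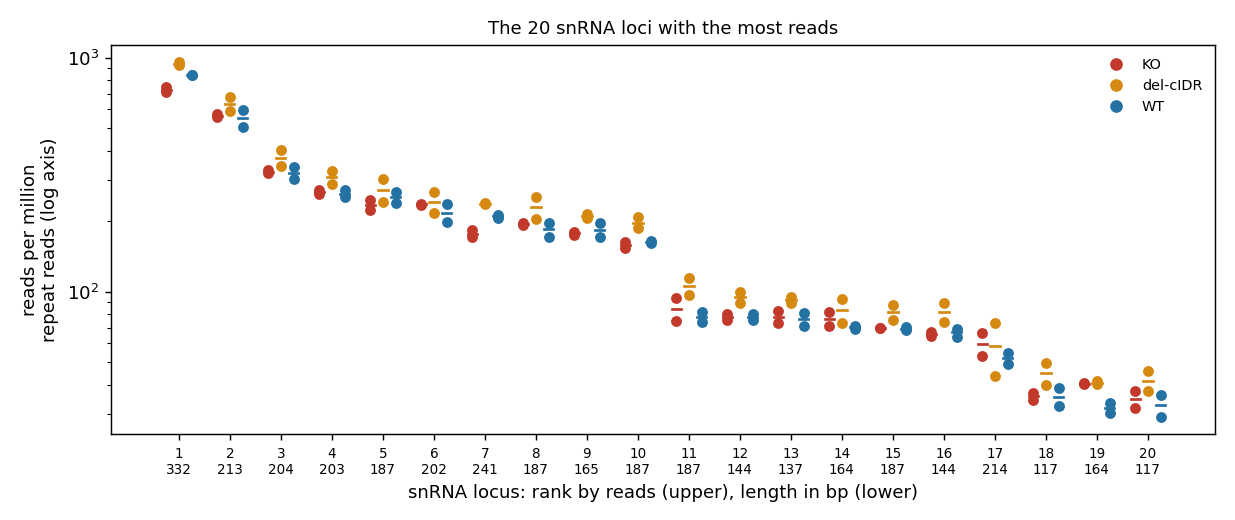
RPM (log axis) of the 20 snRNA loci with the most reads, ordered by rank, with the length of each locus in bp under its rank; points are libraries, 2 per group, and short lines are group means. The largest locus lies at 711 and 745 RPM in KO, 929.8 and 954 in del-cIDR and 846 and 842 in WT, and the del-cIDR mean is the highest of the 3 at most of the other loci.

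Copies also lay in arrays. Chaining loci with a mean of at least 10 reads that lay within 50 kb of the next gave 8 arrays of at least 3 loci, with 42 loci and 25.6% of the snRNA reads. This grouping was chosen after the values were seen and was not tested. The array with the most reads spanned 29.0 kb on chromosome 1 and had 4 loci of 185 to 187 bp. It averaged 373 ± 1.57 RPM in KO, 434 ± 53.0 RPM in del-cIDR and 370.0 ± 35.2 RPM in WT (SD, n = 2 each). An array of 7 loci of 164 or 165 bp on chromosome 12 averaged 305 ± 1.83 RPM in KO, 355 ± 12.4 RPM in del-cIDR and 302 ± 11.5 RPM in WT. An array of 5 loci of 187 bp on chromosome 11 averaged 213 ± 6.37 RPM in KO, 251 ± 35.6 RPM in del-cIDR and 212 ± 15.9 RPM in WT. In 6 of the 8 arrays both del-cIDR libraries lay above the KO mean.

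Summed over all 3382 loci, snRNA took 5222 and 5149 RPM in KO, 5609.8 and 6335 RPM in del-cIDR, and 5394 and 4959 RPM in WT. Both del-cIDR libraries lay above all others, and KO lay within the range of WT. Counting error was far smaller than the spread between the libraries of del-cIDR and of WT. The 95% exact binomial interval was 6301 to 6368 RPM for the second del-cIDR library. The KO libraries lay closer together relative to counting error, with intervals of 5195 to 5250 and 5120 to 5178 RPM. The log2 difference between KO and WT was 0.0038 ± 0.068 (SE; limma adjusted p = 0.96 over 58 repeat families). That between del-cIDR and WT was 0.20 ± 0.07 (limma adjusted p = 0.20), and that between del-cIDR and KO was 0.20 ± 0.07 (limma adjusted p = 0.0503). None passed the threshold of 0.05, where 3.45% of families were called between KO and WT, 0.0% between del-cIDR and WT, and 41.4% between del-cIDR and KO. Of the families called between del-cIDR and KO, 5 were higher and 19 lower in del-cIDR. Without del-cIDR 1 the threshold was passed both against WT, at 0.29 (limma adjusted p = 0.030), and against KO, at 0.29 (limma adjusted p = 0.016), and without WT 1 or WT 2 it was passed against KO (limma adjusted p = 0.045 each). Without del-cIDR 1, 6.90% of families were called against WT and 31.0% against KO, and without either WT library 44.8% were called against KO. With chromosomes 6, 8 and 11 left out, the difference between del-cIDR and KO was 0.14 (limma adjusted p = 0.13).

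Without its largest locus the family took 4512 and 4404 RPM in KO, 4680 and 5380 RPM in del-cIDR, and 4548 and 4118 RPM in WT, with del-cIDR again above the others. The log2 difference between del-cIDR and KO was then 0.17 (limma adjusted p = 0.13), where 41.4% of families were called. That between del-cIDR and WT was 0.21 (limma adjusted p = 0.22), and that between KO and WT was 0.04 (limma adjusted p = 0.76). None of these passed the threshold. The difference was spread unevenly over abundance. The loci ranked 2 to 10 by reads averaged 2332 ± 21.4 RPM in KO, 2704 ± 267 RPM in del-cIDR and 2344 ± 185 RPM in WT (SD, n = 2 each). Loci ranked 11 to 100 averaged 1546 ± 66.8 RPM in KO, 1749 ± 201 RPM in del-cIDR and 1424 ± 94.1 RPM in WT. The remaining loci with a mean of at least 10 reads averaged 462 ± 27.9 RPM in KO, 461 ± 22.8 RPM in del-cIDR and 449 ± 21.7 RPM in WT. Loci under that mean averaged 118 ± 3.03 RPM in KO, 116 ± 3.56 RPM in del-cIDR and 115 ± 3.03 RPM in WT. In both of these lower groups the libraries of the 3 genotypes overlapped.

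On the deposited scale, the summed snRNA signal was 269971 and 174394 in KO, 391336 and 438757 in del-cIDR, and 273639 and 266073 in WT. del-cIDR was the highest group, and 1 KO library fell within the WT range while the other lay below it. The log2 difference between del-cIDR and KO was 0.93 ± 0.30 (SE; limma adjusted p = 0.018), where 13.8% of the 58 families were called, all of them higher. The call was lost without either WT library (limma adjusted p = 0.17 for each) or without either del-cIDR library (limma adjusted p = 0.29 and 0.42). Scaled by the ERCC RNAs instead of the m6A-modified spike-in, the difference was -0.13 (limma adjusted p = 0.012), where 82.8% of families were called, so its direction rests on the spike-in chosen. The difference between del-cIDR and WT was 0.62 ± 0.30 (limma adjusted p = 0.46), and it turned to -0.04 with the ERCC RNAs. Between KO and WT it was -0.31 ± 0.30 (limma adjusted p = 0.69), and 0.09 with the ERCC RNAs. On the deposited scale 0.0% of families were called in either comparison with WT. Each of the comparisons with WT was past the threshold without KO 1, at -0.63 between KO and WT (limma adjusted p = 3.4e-13) and 0.62 between del-cIDR and WT (limma adjusted p = 3.2e-16), and the difference between del-cIDR and WT also without KO 2 (limma adjusted p = 2.9e-16). In these fits most families were called, 93.1% of them between KO and WT without KO 1, and 81.0% between del-cIDR and WT without either KO library.

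**Figure D2:**
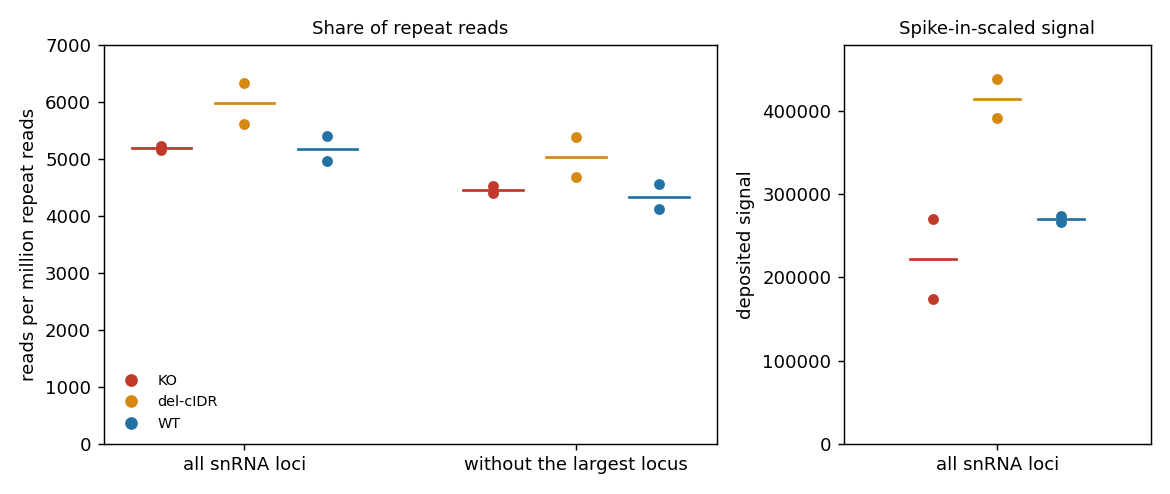
Summed values of the snRNA loci by library, on the left as RPM for all 3382 loci and without the largest, on the right as deposited signal; points are libraries, 2 per group, and lines are group means. On the left the del-cIDR libraries lie at 5609.8 and 6335 for all loci, against 5222 and 5149 in KO and 5394 and 4959 in WT.

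The other small structural RNA families were set beside snRNA. Expressed as the log2 ratio of snRNA to tRNA reads, del-cIDR exceeded KO by 0.27 ± 0.04 (SE, n = 2 each) and WT by 0.12 ± 0.03, while KO minus WT was -0.15 ± 0.05. Against scRNA, a family of small cytoplasmic RNA copies, del-cIDR exceeded KO by 0.26 ± 0.06 and WT by 0.22 ± 0.07, and KO minus WT was -0.03 ± 0.05. Against srpRNA, copies of the signal recognition particle RNA, the ratio went the other way, with del-cIDR minus KO at -0.26 ± 0.07, del-cIDR minus WT at -0.01 ± 0.06 and KO minus WT at 0.25 ± 0.03. Against rRNA the differences were 0.14 ± 0.16, 0.04 ± 0.16 and -0.10 ± 0.004 in the same order. No test was run on these ratios, since a two-sided exact permutation test of 2 libraries against 2 cannot give a p below 0.333. Of these families, 1 locus held 98.8% of the rRNA reads and 1 held 45.0% of the srpRNA reads.

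Single loci were tested over all 390465 repeat loci with a mean of at least 10 reads. Members just inside that minimum had means of 10 to 10.2 reads, and those just outside had 9.83. Between KO and WT on the relative scale, 10 of the 481 snRNA loci were higher and 3 were lower (2.70%), where 4.15% of all tested loci were called, so the share is near that of repeat loci in general. The median relative difference was 0.03 over snRNA loci and -0.004 over all tested loci. An unadjusted limma p under 0.05 was reached at 58 of the 481 snRNA loci, and at 17.7% of all tested loci.

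The snRNA loci called lower in KO than in WT had a median of 78.7 reads, and none was among the top 50 by reads. chr7:144420776-144420873 (98 bp) had 31 and 25 reads in KO against 59 and 69 reads in WT, and del-cIDR had 60 and 74 reads. Both KO libraries lay below the other 4, with a relative log2 difference of -1.36 ± 0.28 from WT (SE; limma adjusted p = 0.0049). The call was lost without KO 2 or WT 2, with adjusted p up to 0.076. chr14:56654234-56654325 (92 bp) had 63 and 47 reads in KO against 98 and 89 in WT, at -0.97 ± 0.24 (limma adjusted p = 0.020), and chr2:166523994-166524231 (238 bp) had 90 and 54 reads in KO against 100 and 125 in WT, at -0.87 ± 0.25 (limma adjusted p = 0.046). Both of these calls were lost without any one of the KO or WT libraries, with adjusted p up to 0.23 at the first and 0.47 at the second.

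Loci that rose in KO were more abundant, with a median of 265 reads, and 5 of the 10 were among the top 50. Calls of this kind were also more frequent at deeper loci over all tested repeat loci. There, 0.534% were called higher at 10 to under 30 reads, 2.09% at 30 to under 100 and 6.40% at 100 to under 1000. chr1:72283372-72283556 (185 bp), in the array on chromosome 1, had 1070 and 828 reads in KO against 635 and 361 reads in WT, and 785 and 718 reads in del-cIDR. Both KO libraries lay above both WT libraries, by 0.77 ± 0.18 (SE; limma adjusted p = 0.012). Without KO 1, KO 2 or WT 2 the call was lost (adjusted p up to 0.29), and without any one library the difference ranged from 0.36 to 1.17. chr2:132559022-132559127 (106 bp) had 66 and 60 reads in KO against 18 and 19 reads in WT, at 1.52 ± 0.33 (limma adjusted p = 0.0072), and its call was lost without KO 1 or KO 2 (adjusted p up to 0.11). chr11:87317542-87317705 (164 bp) had 795 and 352 reads in KO against 256 and 214 in WT, at 0.97 ± 0.22 (limma adjusted p = 0.011), and the call was lost without KO 1 or WT 2, with a range of 0.45 to 1.49 and adjusted p up to 0.46. None of the 20 largest snRNA loci was called between KO and WT. At 1000 reads or more, a depth that 17 snRNA loci reached, 944 repeat loci were tested in all. Of these, 5.72% were called higher in KO than in WT and 21.9% lower.

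Between del-cIDR and WT 1 snRNA locus was called on the relative scale, and it was lower (0.208%), where 0.14% of all tested loci were called. chr18:50867243-50867479 (237 bp) had 8 and 4 reads in del-cIDR against 23 and 44 reads in WT, and 34 and 21 in KO. The log2 difference was -2.27 ± 0.47 (SE; limma adjusted p = 0.045), and the call was lost when any library but del-cIDR 1 was left out (adjusted p up to 0.36). The median over the 481 loci was 0.17, against -0.008 over all tested loci, and 305 of the 481 lay above the median of all loci. Unadjusted p under 0.05 was reached at 80 of the 481 snRNA loci, and at 9.46% of all loci.

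Between del-cIDR and KO 37 snRNA loci were higher and 17 were lower (11.2%), where 12.0% of all tested loci were called, 6.57% higher and 5.45% lower. The share is again near that of repeat loci in general. The median relative difference was 0.14, against -0.010 over all tested loci. The higher loci had a median of 434 reads, the lower ones 35.7, and 14 of the 20 largest snRNA loci were higher and none was lower. At 1000 reads or more, a depth that 17 snRNA loci reached, 59.0% of all 944 repeat loci were called higher and 5.08% lower.

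Among the 10 largest loci, 9 were higher in del-cIDR than in KO, by 0.26 to 0.52 on the log2 scale. chr15:93132244-93132484 (241 bp) had the largest of these differences. It had 236 and 239 RPM in del-cIDR against 183 and 170.5 RPM in KO and had 207 and 213 RPM in WT, so that the 3 groups did not overlap and del-cIDR was highest. The difference from KO was 0.52 ± 0.09 (SE; limma adjusted p = 0.00034), and without KO 2 the adjusted p was 0.051. chr11:101536570-101536756 differed by 0.41 ± 0.09 (limma adjusted p = 0.0045), with the call lost without KO 1, KO 2 or del-cIDR 2 (adjusted p up to 0.12). The other 6, apart from the largest locus, had adjusted p between 0.018 and 0.0496, and each lost the call without KO 1, without KO 2 and without del-cIDR 2, and 2 of them also without del-cIDR 1, with adjusted p up to 0.49. The remaining locus of the 10, chr9:119958416-119958617 (202 bp), had 216 and 266 RPM in del-cIDR against 236 and 235 RPM in KO, which overlap. At chr1:72265399-72265585, which was called, the del-cIDR and KO libraries also overlapped in RPM, by the values given above.

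Loci with fewer reads changed in both directions. chr11:12250499-12250538 (40 bp) had 153 and 212 reads in del-cIDR against 642 and 480 reads in KO, and 373 and 243 in WT, at -1.31 ± 0.19 relative to KO (SE; limma adjusted p = 4.9e-05). chr2:20809088-20809123 (36 bp) had 52 and 43 reads in del-cIDR against 140 and 136 reads in KO, and 72 and 69 in WT, at -1.23 ± 0.24 relative to KO (limma adjusted p = 0.0013). At both loci KO was above the other 4 libraries and del-cIDR below them, and both calls held without any one library. chr7:144420776-144420873, named above as lower in KO than in WT, was 1.52 ± 0.28 higher in del-cIDR than in KO (limma adjusted p = 0.00067), a call that also held without any one library. These comparisons share the KO libraries.

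The size of the difference between del-cIDR and KO increased with abundance. In the comparison of del-cIDR with KO, the median relative difference was 0.01 for the 260 snRNA loci with at least 10 and under 30 reads, 0.16 for the 134 with at least 30 and under 100 reads, 0.31 for the 70 with at least 100 and under 1000 reads, and 0.32 for the 17 with 1000 reads or more. Against WT it was 0.12, 0.09, 0.33 and 0.29 in del-cIDR. All 17 of the most abundant loci had a positive difference in del-cIDR relative to each of the other groups, and 14 of them had del-cIDR libraries that did not overlap KO. Against WT the medians of the snRNA loci did not increase from bin to bin. All tested repeat loci had medians of -0.05, 0.004, 0.10 and 0.44 for del-cIDR against KO and -0.05, 0.006, 0.08 and 0.29 against WT, which increased in both comparisons. Among all 944 repeat loci with 1000 reads or more, 59% were called higher in del-cIDR than in KO, beside 13 of the 17 snRNA loci (76.5%). The median of the 17 snRNA loci was below that of all loci of their depth against KO and about equal to it against WT, and this bin holds under 20 snRNA loci. Between KO and WT the medians of the snRNA loci were 0.04, 0.02, 0.06 and -0.01, against -0.004, 0.002, -0.02 and -0.16 over all tested repeat loci.

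**Figure D3:**
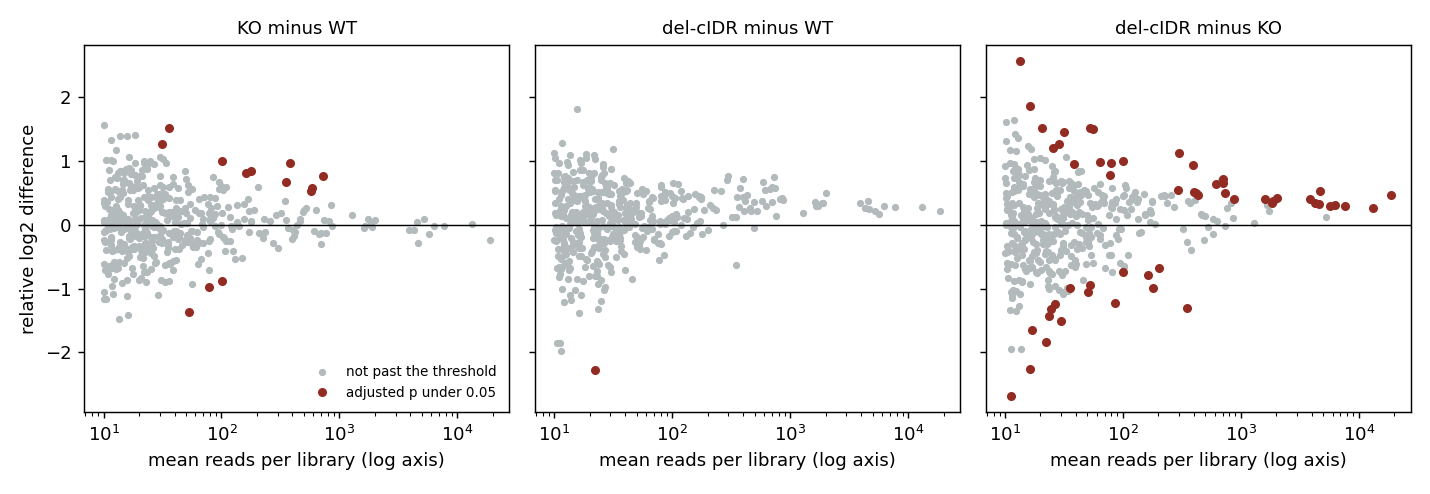
Relative log2 difference of each of the 481 tested snRNA loci (points) against its mean reads per library (log axis), in the panels for KO minus WT, del-cIDR minus WT and del-cIDR minus KO; dark points passed an adjusted p of 0.05. In the right panel the abundant loci sit above 0, and the spread of the points narrows as reads increase in every panel.

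By length, the median difference between del-cIDR and WT was 0.44 for the 40 tested loci of 160 to 169 bp, with 35 above 0, and 0.28 for the 111 loci of 100 to 109 bp, with 79 above 0. Loci of 180 to 199 bp had 0.16 and 17 of 25 above 0, and those of 200 to 230 bp had 0.17 and 23 of 41 above 0. Loci of 110 to 139 bp had 0.005 and 22 of 43 above 0, and those of 170 to 179 bp had -0.20 and 2 of 7 above 0. The remaining 5 classes had medians of 0.09 to 0.18. Among these, loci under 50 bp, the most frequent kind in the table, had 0.09 and 35 of 60 above 0. In sum per length class, loci of 160 to 169 bp averaged 582 ± 27.7 RPM in KO, 692 ± 70.0 RPM in del-cIDR and 552 ± 34.2 RPM in WT (SD, n = 2 each), while loci under 50 bp averaged 161 ± 5.40 RPM in KO, 134 ± 7.08 RPM in del-cIDR and 135 ± 11.7 RPM in WT. In the short loci both KO libraries lay above the other 4. No test was run by length class.

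On the deposited scale 121 snRNA loci were higher in del-cIDR than in KO and 0 were lower (25.2%), where 20.2% of all tested loci were called. The median was 0.77, against 0.63 over all tested loci. Without 1 library the count ranged from 13 (without del-cIDR 1) to 217 (without KO 1), and it was 15 without del-cIDR 2, 50 without KO 2, 50 without WT 1 and 46 without WT 2. Of all tested loci, 4.27% were called without del-cIDR 1 and 35.6% without KO 1, beside 2.70% and 45.1% of the snRNA loci. With the ERCC RNAs as the scale, 6 loci were higher and 56 lower (12.9%), where 18.9% of all tested loci were called. Between KO and WT 0 loci were higher and 2 lower (0.416%), where 2.78% of all tested loci were called. These were chr7:144420776-144420873 at -1.65 ± 0.41 (SE; limma adjusted p = 0.0064) and chr14:56654234-56654325 at -1.26 ± 0.38 (limma adjusted p = 0.042). Without KO 1 60 loci were called (12.5%, beside 12.6% of all tested loci in that fit), without either WT library 0, and without each of the others 1. Between del-cIDR and WT limma called 0 loci, where 0.0679% of all tested loci were called. Here 106 of the 481 snRNA loci had an unadjusted limma p under 0.05, as did 10.1% of all tested loci. edgeR's quasi-likelihood test also called 0 snRNA loci, where 0.0807% of all tested loci were called. Without KO 1, and likewise without KO 2, 43 were called (8.94%), where 1.93% of all tested loci were called in each of these fits.

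snRNA loci were set beside the repeat loci around them. At the 378 tested snRNA loci with at least 5 other tested repeat loci within 10 kb, the Pearson correlation between a locus and the median of its neighbours was 0.48 for KO minus WT, 0.34 for del-cIDR minus WT and 0.58 for del-cIDR minus KO. The points share libraries, and neighbours can lie in the same transcript. For snRNA loci with a mean of 100 reads or more (n = 56) the correlations were 0.26, 0.21 and 0.47. Of the 39 loci called between del-cIDR and KO that had such neighbours, 34 had neighbours of the same sign, and at 22 the neighbours' median was at least 50% of the locus's own difference. Between KO and WT it was 11 of 13 and 7 of 13. Loci that were not called were not counted in this way, so these counts do not set the called loci apart. chr7:144420776-144420873, at -1.36 in KO relative to WT, had a neighbour median of -1.18, and chr18:50867243-50867479, at -2.27 in del-cIDR relative to WT, had one of -2.17. chr1:72283372-72283556 went against its neighbours, at 0.77 in KO relative to WT beside -1.47. The largest locus, chr9:78082584-78082915, was at 0.47 in del-cIDR relative to KO beside 0.39, and the second, chr10:40134463-40134675, was at 0.26 beside -1.16. With 50 kb in place of 10 kb (n = 439), the correlations were 0.40, 0.34 and 0.47.

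**Figure D4:**
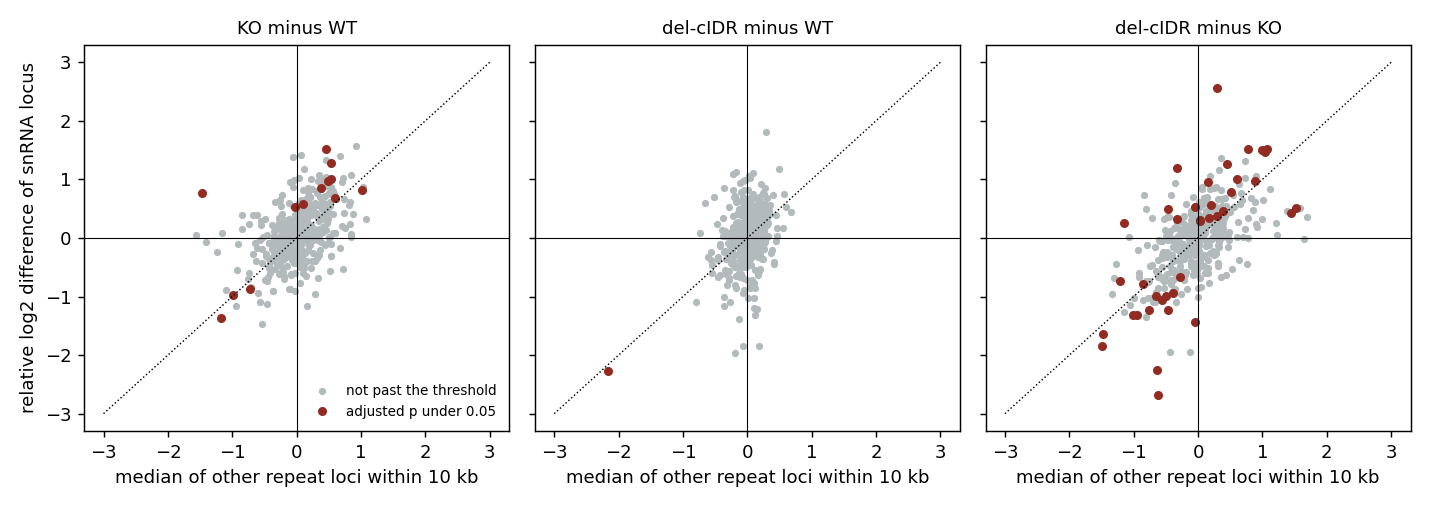
Relative log2 difference of each of 378 snRNA loci against the median difference of the other tested repeat loci within 10 kb, in the panels for KO minus WT, del-cIDR minus WT and del-cIDR minus KO; dark points passed an adjusted p of 0.05 and the dotted line marks equal values. Points lean along the dotted line, with Pearson correlations of 0.48, 0.34 and 0.58.

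The second deposited table gives 74299 genomic intervals, which were read as m6A intervals. An interval overlapped 254 of the 3382 snRNA loci (7.51%) by at least 1 base, and 220 of them over at least 50% of the locus. Among all repeat loci the share was 0.948%, and it was 0.291% for tRNA, 0.238% for srpRNA, 0.407% for scRNA, 0.0847% for rRNA, 1.97% for LINE/L1 and 1.22% for LTR/ERVK loci. Among loci with a mean of at least 10 reads, 80 of the 481 snRNA loci (16.6%) and 5.55% of all repeat loci lay under an interval.

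The share depended on length. Of the 272 loci of 107 bp, the length of Rnu6, 155 (57.0%) lay under an interval, against 0.483% of the 15105 loci of that length in other families. Lengths beside it had less, with 19.6% at 106 bp and 15.4% at 108 bp. Of the 16 loci of 187 bp, the length of Rnu2-10, 11 (68.8%) lay under an interval, against 0.511% of 12144 loci of that length in other families. Of the 170 loci of 200 to 230 bp, which hold 30.1% of the snRNA reads, 0 lay under an interval, nor did chr9:78082584-78082915, and 2 of 95 did among those of 160 to 169 bp.

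These intervals held few reads at the 107 bp loci. Of the 155 loci there, 123 had a mean under 10 reads and 11 had no read in any library, and the intervals over them had a median of 4.67 reads per library, 99 of the 155 with a mean under 10. The 117 loci of 107 bp outside intervals had a median of 0 reads, against 2.67 for those under one. At the 187 bp loci the intervals were well covered, with a median of 2002 reads.

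Most of these intervals lay across one end of the locus. At the 107 bp loci, 79 intervals covered the high-coordinate end and left a median of 24 bp at the other end uncovered, 68 covered the low-coordinate end and left a median of 13.5 bp, and 8 covered the whole locus. They reached a similar distance outside, with a median of 158 bp beyond the high-coordinate end and 161 bp beyond the low-coordinate end. At the 187 bp loci, 9 covered the low-coordinate end and left 59 to 77 bp at the other end, and 2 covered the high-coordinate end and left 69 and 70 bp. Which end is the 5′ end of each copy was not known, since the tables give no strand. Whether a start is counted from 0 or 1 is not stated, so these distances may be off by 1 bp. Intervals with an snRNA locus had a median length of 230 bp, against 373 bp for all intervals.

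**Figure D5:**
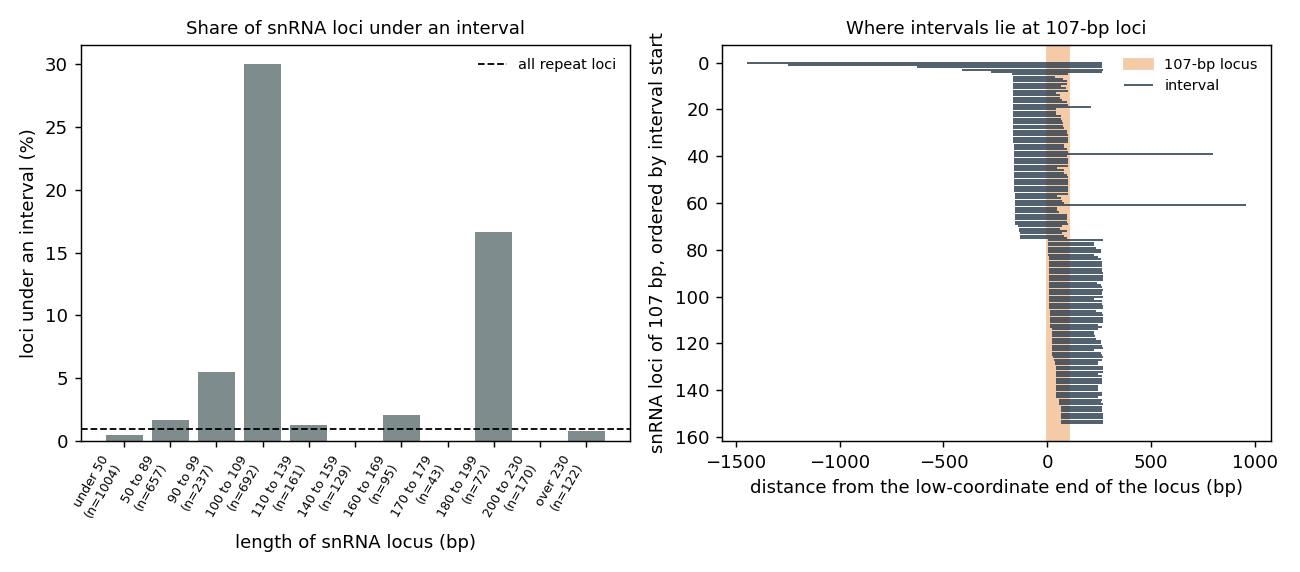
Left, the percentage of snRNA loci under an interval by length of the locus in bp, with the number of loci in brackets and a dashed line at the 0.948% of all repeat loci. Right, the intervals (lines) at the 155 loci of 107 bp, placed by distance in bp from the low-coordinate end of the locus (shaded); most lines cover one end of the locus and stop within about the same distance outside it.

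Of the 37759 intervals that could be tested, 125 held an snRNA locus. On the relative scale 0 of them were higher and 2 lower in KO than in WT, where 12.0% of all tested intervals were called. Between del-cIDR and WT 1 was higher and 0 lower, where 0.305% were called, and between del-cIDR and KO 4 were higher and 0 lower, where 27.5% were called. The 3 medians over these intervals were 0.15 for KO relative to WT, 0.22 for del-cIDR relative to WT and 0.08 for del-cIDR relative to KO, against -0.04, 0.06 and 0.07 over all intervals.

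The interval at chr1:72276105-72276291, a 187 bp locus of the array on chromosome 1, had 1989 and 1992 reads in KO, 2281 and 2904 reads in del-cIDR, and 1426 and 1422 reads in WT. del-cIDR was the highest group and WT the lowest, with no overlap. Its relative difference between del-cIDR and WT was 0.90 ± 0.16 (SE; limma adjusted p = 0.035), and that between del-cIDR and KO was 0.60 ± 0.16 (limma adjusted p = 0.013). The interval at chr6:29963555-29963660 (106 bp) had 17 and 20 reads in KO, 63 and 42 in del-cIDR, and 36 and 67 in WT, at -1.32 ± 0.34 for KO against WT (limma adjusted p = 0.020) and 1.40 ± 0.34 for del-cIDR against KO (limma adjusted p = 0.0070). KO was the low group there, and likewise at chr10:70717934-70718040 (107 bp), where the interval had 14 and 15 reads in KO, 36 and 29 in del-cIDR, and 42 and 29 in WT, at -1.12 ± 0.35 for KO against WT (limma adjusted p = 0.0495). The locus itself had a mean of 0.167 reads. The intervals with the most reads lay at the 187 bp loci. That at chr1:72265399-72265585 had 6603 and 5967 reads in KO, 5446 and 7028 in del-cIDR, and 6809 and 5664 in WT, which overlap, and it was not called in any of the relative comparisons.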

How the data were processed

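The authors deposited 2 tables of spike-in-scaled signal for 6 libraries, 1 of repeat loci and 1 of intervals. Per the submitters' processing notes, HISAT2 and featureCounts were used with GRCm39, beside MACS2, Picard, bedtools, SAMtools and fastp, with no version or role given. Each deposited signal value, divided by the smallest value above 0 in its column, gave whole reads (100.0% of values, within 1e-06), and the ratio of signal per read between the tables was the same in all libraries (19.9).

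Members and lists were chosen with earlier results of these data known. Loci with a mean of at least 10 reads were tested with limma 3.58.1 (R 4.3.3, log2 of signal plus 2, trend, 1 mean per group, all 6 libraries) over the whole table, with Benjamini-Hochberg adjustment and calls at 0.05. Folds of loci with few reads are understated on this scale. Intervals with a mean signal of at least 1 had 0.5 added, and their calls are given on the relative scale alone. Families were summed over loci, and 58 were tested. Overlaps came from bedtools 2.31.1. Python 3.11.15, pandas 2.3.3 and matplotlib 3.10.9 were used. The fit was tested on simulated data. Binomial intervals cover counting error only.

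Named loci were the 10 with the most reads, up to 10 called in each direction of each comparison with libraries that do not overlap (or the 3 with the smallest p), and up to 10 under intervals with the most reads. The text gives a selection. The intervals at chr10:70717934-70718040 and chr1:72276105-72276291 were outside this rule and chosen after their values were seen. Alternatives were edgeR 4.0.16, TMM factors, DESeq2 1.42.0 size factors, the ERCC RNAs as scale, other minimums and pseudocounts, a replicate block and leaving out each library, where a group left with 1 library is assumed to vary like the others. Replicate numbers did not pair the libraries: deviations of same-numbered libraries over all loci correlated at 0.03 (KO and WT), -0.11 (del-cIDR and WT) and -0.04 (del-cIDR and KO). No sequence is shown, because no genome of the files' build was used here.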

Additional observations from a re-analysis of the deposited data

How the results depend on the processing

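Summed snRNA on the deposited scale turned with the spike-in chosen. With the ERCC RNAs as scale the log2 difference was 0.088 for KO minus WT, -0.038 for del-cIDR minus WT and -0.13 for del-cIDR minus KO. With the unmodified spike-in it was -0.56 ± 0.75 for del-cIDR minus WT (SE; limma adjusted p = 0.47) and -0.46 ± 0.75 for del-cIDR minus KO (limma adjusted p = 0.62). For KO minus WT it was -0.099 ± 0.75. On that scale 0 families were called, and these values cannot be told from 0. Leaving out 1 library gave -0.63 to 0.00075 for KO minus WT, 0.54 to 0.70 for del-cIDR minus WT and 0.62 to 1.25 for del-cIDR minus KO. Relative to all repeat reads, KO minus WT changed sign around 0, at -0.027 when centred on the median family, -0.0038 when scaled by reads outside intervals and -0.0048 without snRNA loci under intervals, and ran from -0.057 to 0.064 without 1 library. For del-cIDR minus WT that range was 0.12 to 0.29. For del-cIDR minus KO it was 0.11 to 0.29. The threshold was passed when centred on the median family (0.18, limma adjusted p = 0.011) or scaled by reads outside intervals (0.22, limma adjusted p = 0.029). edgeR's quasi-likelihood test also passed it (0.20, adjusted p = 0.0497). limma did so over loci with a mean of at least 10 reads (0.21, adjusted p = 0.0497) and without loci under intervals (0.19, adjusted p = 0.044). These settings called 43.1% to 46.6% of families. The threshold was not passed with a replicate block (0.20, limma adjusted p = 0.11, 29.3% of families called). Nor was it passed without the largest locus (0.17, limma adjusted p = 0.13, 41.4%) or without chromosomes 6, 8 and 11. Causes of these changes were not tested.

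Counts of snRNA loci called moved by over 1.5 times as follows. On the deposited scale, the ERCC RNAs gave 15 between KO and WT, 2 between del-cIDR and WT and 62 between del-cIDR and KO, against 2, 0 and 121, and edgeR gave 1 between KO and WT. Without 1 library these ran from 0 to 60, from 0 to 43 and from 13 to 217. On the deposited scale, the ERCC RNAs gave calls at 4.13%, 0.56% and 18.9% of all tested loci, against 2.78%, 0.0679% and 20.2%. With edgeR on the deposited scale, 2.56% of all tested loci were called between KO and WT. On the relative scale, DESeq2 size factors gave 5 between KO and WT, 3 between del-cIDR and WT and 18 between del-cIDR and KO. limma gave 13, 1 and 54. Of all tested loci, DESeq2 called 2.11%, 0.182% and 5.76%, against 4.15%, 0.14% and 12.0% with limma. Between del-cIDR and WT, minimums of 5 or 20 reads and a pseudocount of 0.5 gave 0, and a pseudocount of 10 gave 2. In the same order these settings called 0.0591%, 0.257%, 0.115% and 0.209% of all tested loci. Without 1 library the relative counts ran from 1 to 13, from 0 to 5 and from 10 to 59. Of 78 calls at named loci, tried in 1126 alternatives, 808 kept the call and 310 lost it, 205 of these among 468 that left out a library. At 8 abundant loci, del-cIDR minus KO on the deposited scale reversed with the ERCC RNAs, at chr10:40134463-40134675 (-0.16), chr4:132080088-132080291 (-0.13), chr4:132079636-132079838 (-0.12), chr1:72265399-72265585 (-0.12), chr12:59087121-59087307 (-0.097), chr12:54743567-54743731 (-0.082), chr11:101536570-101536756 (-0.0091) and chr8:52789954-52790140 (-0.10). Requiring 50% of a locus under an interval gave 220 of the 254 loci.

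The labels give all groups replicate numbers 1 and 2, but the libraries share only a number. With a replicate block, summed snRNA on the deposited scale was no longer called between del-cIDR and KO (0.93, limma adjusted p = 0.070), and calls fell to 1 locus between KO and WT and 79 between del-cIDR and KO on the deposited scale, and to 0 between del-cIDR and WT and 35 between del-cIDR and KO on the relative scale. On the deposited scale the replicate block called 1.82% of all tested loci between KO and WT and 16.1% between del-cIDR and KO. On the relative scale it called 0.0855% between del-cIDR and WT and 10.5% between del-cIDR and KO. The 79 and 35 snRNA loci are 16.4% and 7.28% of those tested. A block with the del-cIDR numbers crossed was chosen after seeing the data. It gave 20, 23 and 73 relative calls for KO against WT, del-cIDR against WT and del-cIDR against KO. These were 4.16%, 4.78% and 15.2% of the snRNA loci, where 6.69%, 0.715% and 15.5% of all tested loci were called.

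Depth limits the loci with few reads: 260 of the 481 tested loci had at least 10 and under 30 reads per library, where a single read moves a log2 value, and loci under that minimum support no statement about a change. With 2 libraries a group, 1 library decides many calls.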

Other observations

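Lengths of other RefSeq snRNA genes were also set beside the snRNA loci, as lengths only, since the builds differ. Loci of 116 bp, the length of Rnu5g (U5), numbered 9, with 1 at a mean of at least 10 reads, and held 0.149% of the snRNA reads. Loci of 164 bp, the length of Rnu1a1 (U1), numbered 19, with 10 at that mean and 2.93% of the reads, and those of 166 bp, the length of Rnu1b6 (U1), numbered 8, with 4 at that mean and 0.902% of the reads. Among genes of the minor spliceosome, the length of Rnu11 (108 bp) was shared by 26 loci, 7 of them at that mean, and the length of Rnu12 (150 bp) by 4 loci, 0 of them at that mean. The length of Rnu7 (62 bp), whose RNA takes part in processing histone mRNA 3′ ends, was shared by 8 loci, 2 of them at that mean. The lengths of the U3 genes Rnu3a (212 bp) and Rnu3b1 (215 bp) were shared by 4 and 9 loci, with 1 each at that mean, so the loci of 200 to 230 bp with the most reads had other lengths.

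Loci with a mean of at least 10 reads lay on 20 chromosomes. Chromosome 11 held 52 of the 481, chromosome 4 held 38 and chromosome 3 held 35, while chromosomes 18, 19 and X held 13 each.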
